A study of Mus musculus with 15 samples.

Results

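The mitotic module described here is a set of 46 genes of the spindle, its checkpoint and the anaphase-promoting complex, the ubiquitin ligase that starts chromosome separation. The members were picked by gene name from a table of 53023 genes measured in mouse 2-cell embryos, and 46 of the 46 names matched 1 row each. The study asked what happens to the transcriptome when filaments of nuclear actin are disrupted. Each library was made from polyadenylated RNA of a pool of 5 ICR embryos, which were fertilised in vitro, injected with mRNA (where injected) at 2 hours after insemination and collected at 32 hours.

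Only 6 libraries of the series were used, in 3 pairs, and the labels of these pairs contradict each other. Pair C (libraries C1 and C2) is titled as non-injected control, while its annotated injected mRNA is actinR62D-HA-NLS. Pair B (B1 and B2) is titled R62D, while its annotation is actinWT-HA-NLS. Pair A (A1 and A2) is titled Wt, while its annotation is non-injected. R62D names an actin mutant, and wild-type actin was the injected control; HA is an epitope tag and NLS a nuclear localisation signal. If the annotation holds, C against B compares R62D with wild-type actin, C against A compares R62D with embryos that were not injected, and B against A compares wild-type actin with embryos that were not injected. If the titles hold, C against B compares non-injected with R62D embryos, C against A compares non-injected embryos with those given wild-type actin, and B against A compares R62D with wild-type actin. The other 9 libraries of the series were not analysed here.

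At mitosis, microtubules attach to kinetochores, the protein plates on the centromeres. Kinetochores without proper attachment let Mad2, BubR1 and Bub3 hold Cdc20, which keeps the anaphase-promoting complex (APC/C) inactive; this is the spindle checkpoint. Once all are attached, APC/C with Cdc20 marks securin and cyclin B for destruction, separase cuts cohesin, and the chromosomes part. The mouse embryo enters its second mitosis from the 2-cell stage, and oocytes store many of these mRNAs for the meiotic divisions, so both inherited and newly made transcripts can be present at this stage.

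Many genes of this module are known for 2 short promoter elements, the cell cycle homology element bound by the DREAM and MuvB complexes and the CCAAT box bound by NF-Y. The 100 bases before a RefSeq transcription start are printed for 6 members to show how these letters are placed. The 6 include both APC/C activators, the E2 enzyme, separase, a checkpoint protein and the kinase Plk1. The sequences are those of RefSeq on build GRCm38.p6, and capitals mark TTTGAA or CCAAT on either strand (TTCAAA and ATTGG are their reverse complements). The windows are chr4:118437344-118437443 on the minus strand for Cdc20, chr2:164769829-164769928 on the plus strand for Ube2c, chr15:102296193-102296292 on the plus strand for Espl1, chr7:131560270-131560369 on the plus strand for Bub3, chr7:122159335-122159434 on the plus strand for Plk1 and chr10:81378371-81378470 on the minus strand for Fzr1.
Cdc20: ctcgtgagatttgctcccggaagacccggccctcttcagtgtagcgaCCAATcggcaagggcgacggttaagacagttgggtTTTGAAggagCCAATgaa
Ube2c: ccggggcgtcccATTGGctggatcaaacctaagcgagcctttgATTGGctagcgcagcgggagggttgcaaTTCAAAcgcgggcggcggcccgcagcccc
Espl1: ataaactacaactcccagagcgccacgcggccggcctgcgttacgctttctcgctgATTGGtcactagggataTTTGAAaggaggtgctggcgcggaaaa
Bub3: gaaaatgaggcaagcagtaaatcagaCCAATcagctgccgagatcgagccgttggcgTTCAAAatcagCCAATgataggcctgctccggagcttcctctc
Plk1: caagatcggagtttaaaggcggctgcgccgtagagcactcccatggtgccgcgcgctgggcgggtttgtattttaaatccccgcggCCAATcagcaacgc
Fzr1: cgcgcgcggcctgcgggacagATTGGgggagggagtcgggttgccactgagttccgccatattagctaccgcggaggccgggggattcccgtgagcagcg
The windows of Bub3 and Fzr1 lie inside the gene spans deposited with the FPKM values, and those of Ube2c and Cdc20 partly do. Cdc20, Ube2c, Espl1 and Bub3 hold both elements in this stretch, with TTTGAA beginning at -18, -29, -27 and -43 from the start used. From another RefSeq start of Bub3, TTTGAA begins at -167. The Plk1 copy of TTTGAA begins at 31 bases after the start and is not printed. For the first element only the letters TTTGAA were searched, so an unmarked window may hold it in another spelling. Fzr1 holds a CCAAT and no TTTGAA. Of the 46 members, 40 have a window from 250 bases before to 50 bases after the start in the RefSeq table. TTTGAA was found on either strand in 22 of these 40 (55.0%), against 20.2% of all 27025 genes in the table. CCAAT was found in 27 of 40 (67.5%), against 41.1% of all genes, and both were found in 18 of 40 (45.0%), against 7.97%. The 2 motifs can share at most 1 base. A match is a description of these letters only.

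The deposited values are FPKM, fragments per kilobase of exon, scaled to the fragments assigned to genes in each library. Assigned reads, recovered from the FPKM steps, ranged over the 6 libraries between 907210 and 1555431, so that 1 read in a gene of 2 kb is worth 0.321 to 0.551 FPKM. Between 12279 and 13845 genes reached 1 FPKM. C2 and A2 had the fewest such genes and stood apart from the other 4 libraries on the first principal component, at 49.7 and 49.3 against scores between -32.7 and -11.1. Over 20 tested maternal and oocyte transcripts, the median deviation from the gene mean was 0.58 in C1, -0.39 in C2, 0.19 in B1, 0.00 in B2, 0.35 in A1 and -0.56 in A2, on the log2 scale. Over 20 tested markers of the 2-cell stage it was 0.16 in C1, -0.36 in C2, 0.01 in B1, 0.93 in B2, -0.10 in A1 and -0.71 in A2. No gene of either list that was found in the table was at 0 in all libraries, so the markers of the labelled stage were present. Of 22 cumulus and granulosa cell markers, 8 were at 0 in all libraries, Fshr, Lhcgr and Foxl2 among them, and the summed level of the list was 12.7 to 25.0 FPKM. The sperm list (15 genes, 5 at 0 in all libraries) summed to 34.8 to 55.4 FPKM, and the blood list (10 genes, 4 at 0) to 11.8 to 90.3 FPKM. In each of the cumulus, sperm and blood lists, 3 genes averaged at least 1 FPKM. In pooled embryos, fewer cells and less RNA per cell cannot be told apart, and nothing in the labels says whether the 2 pools of a pair came from separate fertilisations, so the spread within a pair may be technical.

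All 46 members had at least 1 read in each of the 6 libraries, and 46 passed the filter of a mean of 1 FPKM used for testing. Their median level was 26.7 FPKM, against 5.59 FPKM over the 13443 tested genes, and 41 of 46 lay above that median. The most abundant was Pttg1 and the least abundant Fzr1, with means over all libraries of 634.7 and 1.07 FPKM. By role, the median member had 76.5 FPKM among the kinases and passenger proteins, 68.9 FPKM among the spindle motors and assembly factors and 41.9 FPKM among the kinetochore proteins. It had 26.3 FPKM in cytokinesis, 11.5 FPKM in the checkpoint and 8.57 FPKM among the APC/C subunits and E2.

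**Figure D1:**
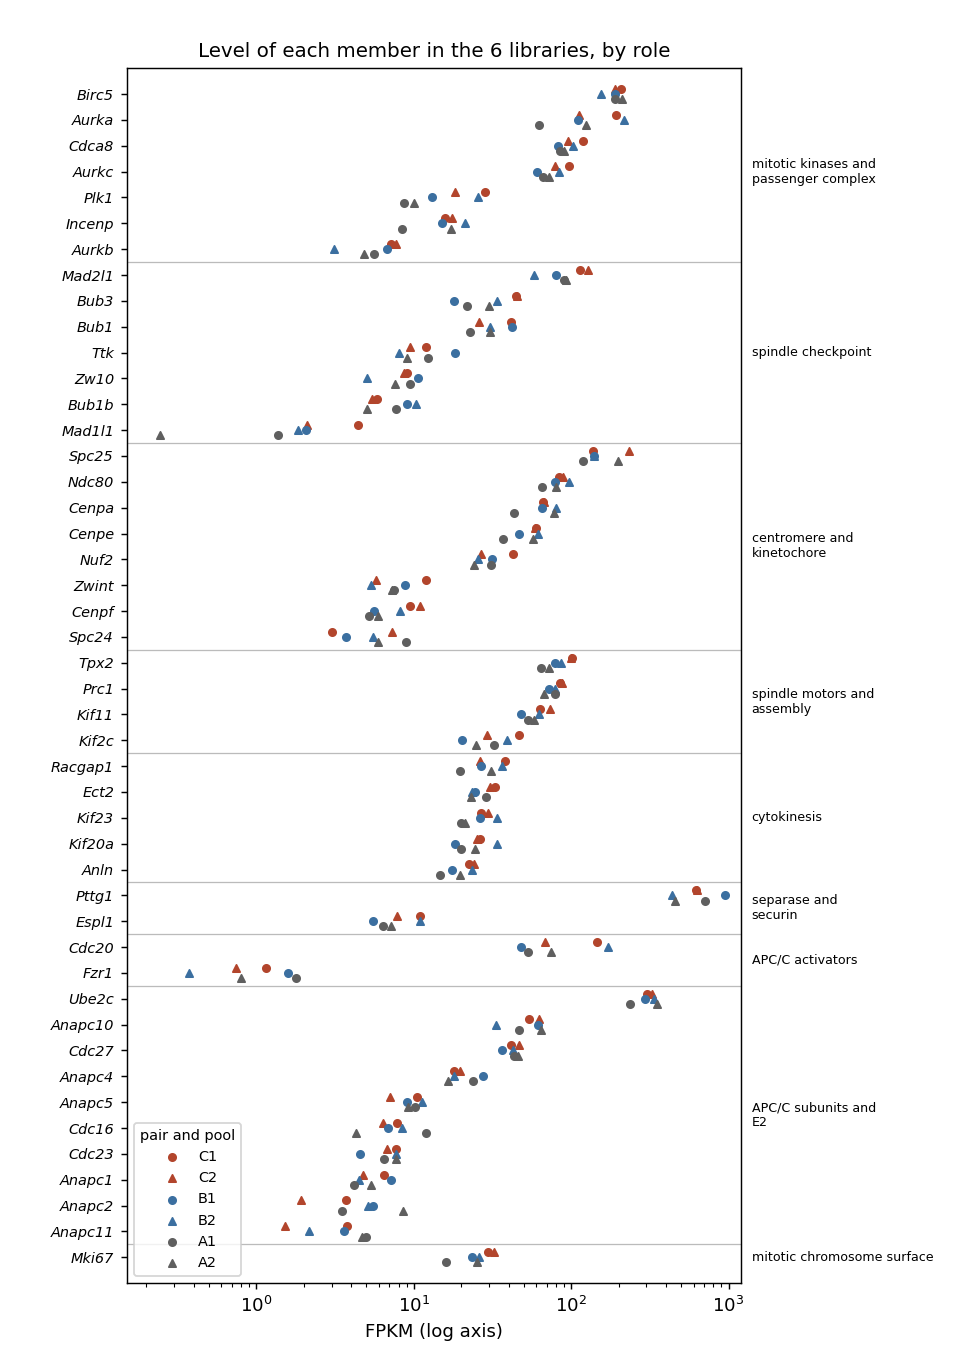
FPKM of the 46 members in each library on a log axis, in 9 blocks by role; colours mark the pairs C, B and A, circles pool 1 and triangles pool 2. Pttg1 and Ube2c lie furthest right, Fzr1 and Mad1l1 furthest left, and the members differ far more from each other than a member does between libraries.

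Securin, encoded by Pttg1, holds separase inactive until APC/C destroys it. Pttg1 (chr11:43420250-43426251, minus strand, mm10) had 623 and 631 FPKM in pair C, 951 and 440.0 FPKM in pair B, and 709 and 454 FPKM in pair A. Pool 1 of pairs B and A was above both C libraries and pool 2 of those pairs below both, so that no pairs were apart. Espl1, the gene of separase itself, averaged 9.34 ± 2.15 FPKM in pair C, 8.17 ± 3.80 FPKM in pair B and 6.74 ± 0.577 FPKM in pair A (SD, n = 2 each). The inhibitor's mRNA was thus listed at 634.7 FPKM and that of the protease at 8.08 FPKM, as means over the 6 libraries.

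The 2 activators of APC/C were far apart in level. Cdc20 (chr4:118432901-118437352, minus strand), the activator of metaphase, had 147 and 68.6 FPKM in pair C, 48.0 and 171 FPKM in pair B, and 53.0 and 74.0 FPKM in pair A. Its highest library was 3.55 times its lowest, and the largest gap lay inside pair B. Fzr1, the gene of Cdh1, which takes over from Cdc20 late in mitosis and in G1, had 1.15 and 0.737 FPKM in pair C, 1.59 and 0.373 FPKM in pair B, and 1.78 and 0.797 FPKM in pair A. These levels rest on 8 and 3, 9 and 2, and 8 and 4 reads, so no difference between the pairs was detectable at this depth. Fzr1 stood at rank 13156 of the 13443 tested genes; it was singled out after its values were seen.

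The enzyme and the subunits of APC/C also differed widely among themselves. Ube2c (chr2:164769898-164778822, plus strand), the E2 that starts ubiquitin chains on APC/C substrates, had 303 and 329 FPKM in pair C, 296 and 336 FPKM in pair B, and 235 and 353 FPKM in pair A. The 3 pairs overlapped, and their means of 316, 316 and 294 FPKM were closer than the SD within pair A of 83.4 FPKM. Ube2c shares 30.3% of its exon bases with Tnnc2 on the opposite strand, and whether the counting used strand is not stated. The highest core subunit was Anapc10, which helps to recognise substrates, with 53.9 and 62.3 FPKM in pair C, 61.9 and 33.5 FPKM in pair B, and 46.9 and 64.3 FPKM in pair A. Cdc27, a scaffold subunit that binds the activators, followed at a mean of 42.8 FPKM and had the narrowest spread, its highest library being 1.27 times its lowest. The other 7 subunits averaged between 3.44 and 20.6 FPKM. Among them are the cullin Anapc2 and the RING protein Anapc11, which form the catalytic core, at 4.72 and 3.44 FPKM.

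Among the mitotic kinases and the chromosomal passenger complex, Birc5, the gene of survivin, was the highest. It had 208 and 189.6 FPKM in pair C, 189.8 and 154 FPKM in pair B, and 189 and 209 FPKM in pair A, and the pairs overlapped. Aurka (chr2:172356190-172370535, minus strand), the kinase of centrosomes and spindle poles, had 192 and 112 FPKM in pair C, 111 and 216 FPKM in pair B, and 62.4 and 124 FPKM in pair A. Like Cdc20 it was high in C1 and B2 and its spread within a pair was as wide as that between pairs. Cdca8, the gene of borealin in the passenger complex, had 119 and 95 FPKM in pair C, 82.0 and 103 FPKM in pair B, and 85.0 and 90.2 FPKM in pair A. Aurkc, the Aurora kinase of germ cells and early embryos, had 96.7 and 78.8 FPKM in pair C, 61.0 and 83.5 FPKM in pair B, and 66.4 and 72.6 FPKM in pair A. Of both genes the C libraries lay above the A libraries, while B overlapped with each. Aurkb, the catalytic subunit of the complex in somatic cells, was far lower than Aurkc, with 7.20 and 7.67 FPKM in pair C, 6.71 and 3.13 FPKM in pair B, and 5.60 and 4.86 FPKM in pair A. Plk1 (chr7:122159439-122169873, plus strand), the Polo kinase of mitotic entry and spindle assembly, had 28.2 and 18.2 FPKM in pair C, 13.1 and 25.7 FPKM in pair B, and 8.64 and 10.1 FPKM in pair A. Both A libraries lay below the other 4. Incenp, the scaffold of the passenger complex, ranged between 8.39 and 21.1 FPKM.

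Of the checkpoint proteins, Mad2l1 was the most abundant transcript. Mad2l1 (chr6:66535390-66547220, plus strand), whose product Mad2 binds Cdc20, had 114 and 127 FPKM in pair C, 79.9 and 58.2 FPKM in pair B, and 90.2 and 93.0 FPKM in pair A. The 3 pairs did not overlap, with C highest and B lowest. Bub3 (chr7:131560222-131571895, plus strand), which docks Bub1 and BubR1 at the kinetochore, had 44.6 and 45.2 FPKM in pair C, 18.1 and 33.6 FPKM in pair B, and 21.7 and 30.1 FPKM in pair A. Both C libraries were above all others. Bub1b, the gene of BubR1, had the opposite order for C and B, with 5.87 and 5.41 FPKM in pair C, 9.06 and 10.4 FPKM in pair B, and 7.72 and 5.02 FPKM in pair A. The kinase Bub1 ranged between 22.7 and 41.8 FPKM, the kinase Ttk (Mps1) between 8 and 18.2 FPKM, and Zw10, which helps to bring dynein to kinetochores, between 5.03 and 10.7 FPKM. Mad1l1, whose product anchors Mad2 at the kinetochore, was low, with 4.40 and 2.11 FPKM in pair C, 2.06 and 1.84 FPKM in pair B, and 1.37 and 0.245 FPKM in pair A. The lowest of these values is 1 read; Mad1l1 was singled out after its values were seen.

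The 4 subunits of the NDC80 complex, the link between kinetochore and microtubule, were not level with each other. Spc25 had 137 and 234 FPKM in pair C, 139 and 139 FPKM in pair B, and 118 and 198 FPKM in pair A. Ndc80 had 83.2 and 89.1 FPKM in pair C, 79.0 and 96.4 FPKM in pair B, and 65.1 and 80.3 FPKM in pair A. Spc25 and Ndc80 averaged 161 and 82.2 FPKM over all libraries, against 30.2 FPKM for Nuf2 and 5.72 FPKM for Spc24. FPKM divides by the merged length of all exons, so a level between genes also depends on how many long, rarely used exons are annotated. Cenpa, the histone that marks the centromere, had 66.5 and 67.5 FPKM in pair C, 65.4 and 80.1 FPKM in pair B, and 43.5 and 78.0 FPKM in pair A. Its pairs overlapped. Cenpf, a large protein of the outer kinetochore, had 9.44 and 11 FPKM in pair C, 5.58 and 8.16 FPKM in pair B, and 5.22 and 5.91 FPKM in pair A, with both C libraries on top. Cenpe, a kinetochore kinesin, ranged between 36.7 and 61.9 FPKM and Zwint between 5.38 and 12 FPKM.

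The spindle motors and assembly factors had means between 32.0 and 83.6 FPKM. Tpx2, which activates Aurora A on the spindle, had 100.5 and 99.9 FPKM in pair C, 79.1 and 85.6 FPKM in pair B, and 64.1 and 72.5 FPKM in pair A. Its 3 pairs did not overlap, in the order C, B, A. Prc1, which bundles the microtubules of the central spindle, had 84.7 and 87.5 FPKM in pair C, 72.1 and 78.6 FPKM in pair B, and 78.7 and 66.8 FPKM in pair A; 11.1% of its exon bases are shared with Rccd1 on the opposite strand. Kif11, the kinesin that pushes the poles apart, had 63.3 and 73.4 FPKM in pair C, 48.1 and 62.6 FPKM in pair B, and 53.3 and 58.1 FPKM in pair A. For Prc1 and Kif11 both C libraries were above the other 4, and B and A overlapped. Kif2c, which takes microtubule ends apart, ranged between 20.2 and 46.6 FPKM.

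The cytokinesis genes lay close together, with means between 20.3 and 29.6 FPKM. Ect2, the exchange factor that activates RhoA at the midzone, had 32.9 and 30.3 FPKM in pair C, 24.4 and 23.5 FPKM in pair B, and 28.8 and 23.1 FPKM in pair A. Kif23, the kinesin of the centralspindlin complex, had 26.6 and 29.7 FPKM in pair C, 26.4 and 33.7 FPKM in pair B, and 20.0 and 21.2 FPKM in pair A. Ect2 was thus highest in both C libraries, and Kif23 lowest in both A libraries. Racgap1, the partner of Kif23, ranged between 19.6 and 37.9 FPKM, Kif20a between 18.4 and 33.8 FPKM, and the contractile ring scaffold Anln between 14.6 and 24.2 FPKM. Kif20a and Cdc23 share 33.2% and 26.5% of their exon bases with each other on opposite strands. Mki67, the gene of the Ki-67 protein that coats mitotic chromosomes, had 29.8 and 32.2 FPKM in pair C, 23.3 and 26 FPKM in pair B, and 16 and 25.1 FPKM in pair A, with both C libraries on top.

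No member passed the test in any of the 3 comparisons. The test was limma on log2(FPKM + 1) with all 6 libraries in 1 fit, and p-values were adjusted by the Benjamini-Hochberg method over all 13443 genes; an adjusted p under 0.05 was reached by 0 genes in each comparison (0.0% of those tested). The smallest adjusted p of any gene was 0.167 for pair C against pair B, 0.344 for C against A and 0.334 for B against A. Among the members it was 1, 1 and 0.991. The comparisons share pairs, so their values are not independent. All differences are of log2(FPKM + 1), a scale that makes those of low genes look smaller, and 2 pairs are called apart where both libraries of one lie above both of the other.

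In pair C against pair B, the checkpoint genes Mad2l1 and Bub3 had the largest positive differences of the members, and the subunit Anapc2 the lowest. That of Anapc2 was -0.76 ± 0.49 (SE), on 20 and 6 reads in pair C and 24 and 21 reads in pair B. The difference was above 0 for 30 of 46 members (65.2%), against 49.9% of all tested genes, with a median of 0.17, against 0.00 over all tested genes. The median was 0.04 without C1 and 0.06 without B1. The pairs were apart with C higher for 10 members (21.7%, against 15.5% of all tested genes), and with C lower for 2 members (4.35%, against 14.8%). Mad2l1 was the only member with an unadjusted p under 0.05 in this comparison (2.17% of members, against 1.64% of all tested genes with C higher), and none had one with C lower, against 2.22% of all tested genes. Its mean was 121 ± 9.60 FPKM in pair C and 69.0 ± 15.3 FPKM in pair B (SD, n = 2 each), a difference of 0.81 ± 0.29 (SE; limma unadjusted p = 0.0251, adjusted p = 1). For Bub3 the difference was 0.84 ± 0.38, with means of 44.9 ± 0.417 FPKM in pair C and 25.8 ± 11 FPKM in pair B. For Bub1b it was -0.69 ± 0.36, with means of 5.64 ± 0.318 FPKM in pair C and 9.72 ± 0.930 FPKM in pair B. The differences of the other members with C apart and higher and a mean of at least 5 FPKM (Aurkb, Cenpf, Ect2, Mki67, Kif11, Tpx2 and Prc1) were between 0.19 and 0.58. By role, 3 of 4 spindle motor and assembly genes and 3 of 7 checkpoint genes were apart with C higher. Of the APC/C subunits and E2, 0 of 10 were, against 15.5% of all tested genes. Whether the roles differ was not tested.

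In pair C against pair A, the genes of the kinases, the spindle motors and cytokinesis had mostly positive differences, and those of the APC/C subunits lay on both sides of 0. The difference was above 0 for 36 of 46 members (78.3%), against 56.5% of all tested genes, with a median of 0.26, against 0.06 over all tested genes. It was below 0 for 10 members (21.7%, against 43.1%). The lowest differences were -0.82 ± 0.49 (SE) for Anapc2 and -0.75 ± 0.47 for Anapc11. The highest was 1.26 ± 0.54 for Mad1l1, on 25 and 7 reads in pair C and 5 and 1 reads in pair A. The pairs were apart with C higher for 19 members (41.3%, against 16.5% of all tested genes). They were apart with C lower for 1 (2.17%, against 10.4%), the subunit Anapc11. Anapc11 rests on 29.5 and 7 reads in pair C and 25 and 26.5 reads in pair A. After scaling each library to the same median, or by quantiles, 14 members were apart with C higher (30.4%, against 13.9% and 14.9% of all tested genes), and 4 and 3 with C lower (8.70% and 6.52%, against 12.4% and 12.5%). These counts were added after seeing the data. Leaving out 1 library of either pair, after which it is easier to be apart, gave 22 members without C1 and 31 without A2 as the extremes (47.8% and 67.4%, against 30% and 33.2% of all tested genes). With C2 and A2 left out, C1 lay above A1 for 36 members (78.3%, against 56.9%).

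Plk1 had the smallest p of the members in this comparison. Its mean was 23.2 ± 7.10 FPKM in pair C and 9.35 ± 1.01 FPKM in pair A (SD, n = 2 each), a difference of 1.2 ± 0.42 (SE; limma unadjusted p = 0.0241, adjusted p = 1). It was the only member with an unadjusted p under 0.05 there (2.17%, against 1.67% of all tested genes with C higher), and none had one with C lower, against 1.34% of all tested genes. Plk1 rests on 96.5 and 36.2 reads in pair C and 19.0 and 24.8 reads in pair A, and shares 7.09% of its exon bases with an unclassified transcript on the opposite strand. The difference was 0.79 ± 0.38 for Bub3, 0.77 ± 0.36 for Cenpf, 0.60 ± 0.34 for Mki67, 0.55 ± 0.27 for Tpx2 and 0.43 ± 0.30 for Kif23. For Mad2l1 it was 0.39 ± 0.29, with means of 121 FPKM in pair C and 91.6 FPKM in pair A. For the other members apart with C higher and a mean of at least 5 FPKM that are given in full above (Aurkb, Aurkc, Kif11, Cdca8, Ect2, Prc1 and Ndc80), it was between 0.24 and 0.44.

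Of all tested genes, 16.5% were apart with C higher than A. By role, this held for 4 of 5 cytokinesis genes and 4 of 7 kinases and passenger proteins. It also held for 3 of 4 spindle motor and assembly genes, 3 of 8 kinetochore genes and 3 of 7 checkpoint genes. The median differences of these roles were 0.35, 0.43, 0.33, 0.24 and 0.32. Of the 10 APC/C subunits and E2, 4 had a difference above 0, none was apart with C higher, and the median was -0.03. Whether the roles differ from each other was not tested.

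**Figure D2:**
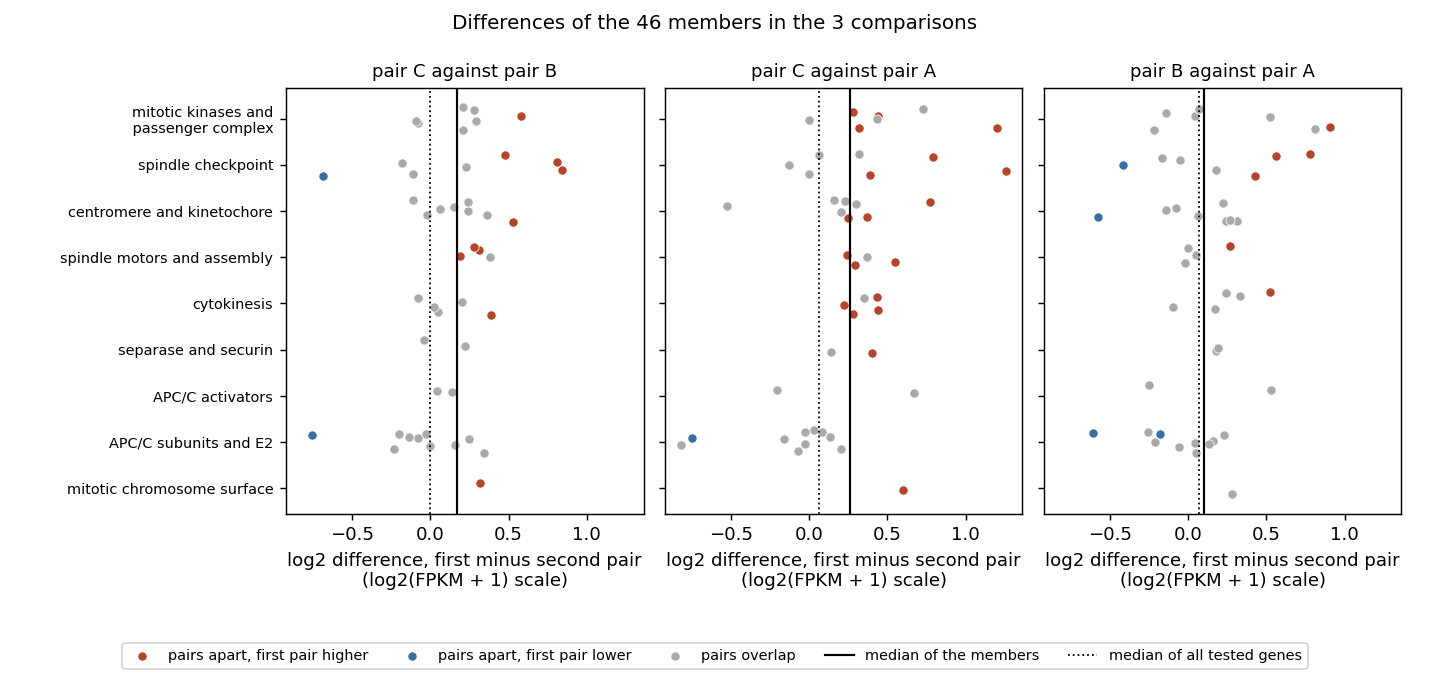
Log2 difference of each member by role, in pair C against B, C against A and B against A; red and blue points are members whose pairs do not overlap, grey points the others, and the solid and dotted lines are the medians of the members and of all tested genes. The solid line stands at 0.17, 0.26 and 0.10 and the dotted line at 0.00, 0.06 and 0.07; APC/C subunits lie around 0 in the 3 panels.

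In pair B against pair A, the members were close to the rest of the transcriptome. The difference was above 0 for 29 of 46 members (63.0%), against 55.1% of all tested genes, with a median of 0.10, against 0.07. It was below 0 for 17 members (37.0%, against 44.5%). The pairs were apart with B higher for 6 members (13.0%, against 18.8% of all tested genes) and with B lower for 4 (8.70%, against 12.8%). No member had an unadjusted p under 0.05, against 2.77% of all tested genes with B higher and 1.79% with B lower. Plk1 had the largest difference of those given in full, 0.91 ± 0.42, with means of 19.4 ± 8.89 FPKM in pair B and 9.35 ± 1.01 FPKM in pair A (limma unadjusted p = 0.0659, adjusted p = 0.991). For Bub1b it was 0.56 ± 0.36, for Kif23 0.52 ± 0.30, for Tpx2 0.27 ± 0.27 and for Mad2l1 -0.42 ± 0.29.

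Taken library by library, a larger share of the members than of all tested genes was higher in each C library than in each A library. The tested genes were not matched to the members in level or type. Their median levels were 5.59 FPKM and 26.7 FPKM for the members. C1 exceeded A1 for 36 of 46 members and A2 for 36 (78.3% each, against 56.9% and 60.3% of all tested genes). C2 exceeded A1 for 32 (69.6%, against 46.2%) and A2 for 31 (67.4%, against 50.5%). C1 exceeded B1 and B2 for 34 and 28 members (73.9% and 60.9%, against 55.5% and 54.8%), and C2 exceeded them for 30 and 24 (65.2% and 52.2%, against 44.3% and 43.3%). Inside the pairs, C1 exceeded C2 for 27 members (58.7%, against 59.7%), B1 exceeded B2 for 17 (37.0%, against 48.4%) and A1 exceeded A2 for 17 (37.0%, against 53.2%). A1 was the lowest library for 16 members (34.8%, against 15.8% of all tested genes), a count picked after the values were seen. The median deviation of the members from their gene means was 0.16 in C1, 0.06 in C2, -0.07 in B1, 0.10 in B2, -0.17 in A1 and -0.04 in A2, and its pooled SD within pairs was 0.0979.

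**Figure D3:**
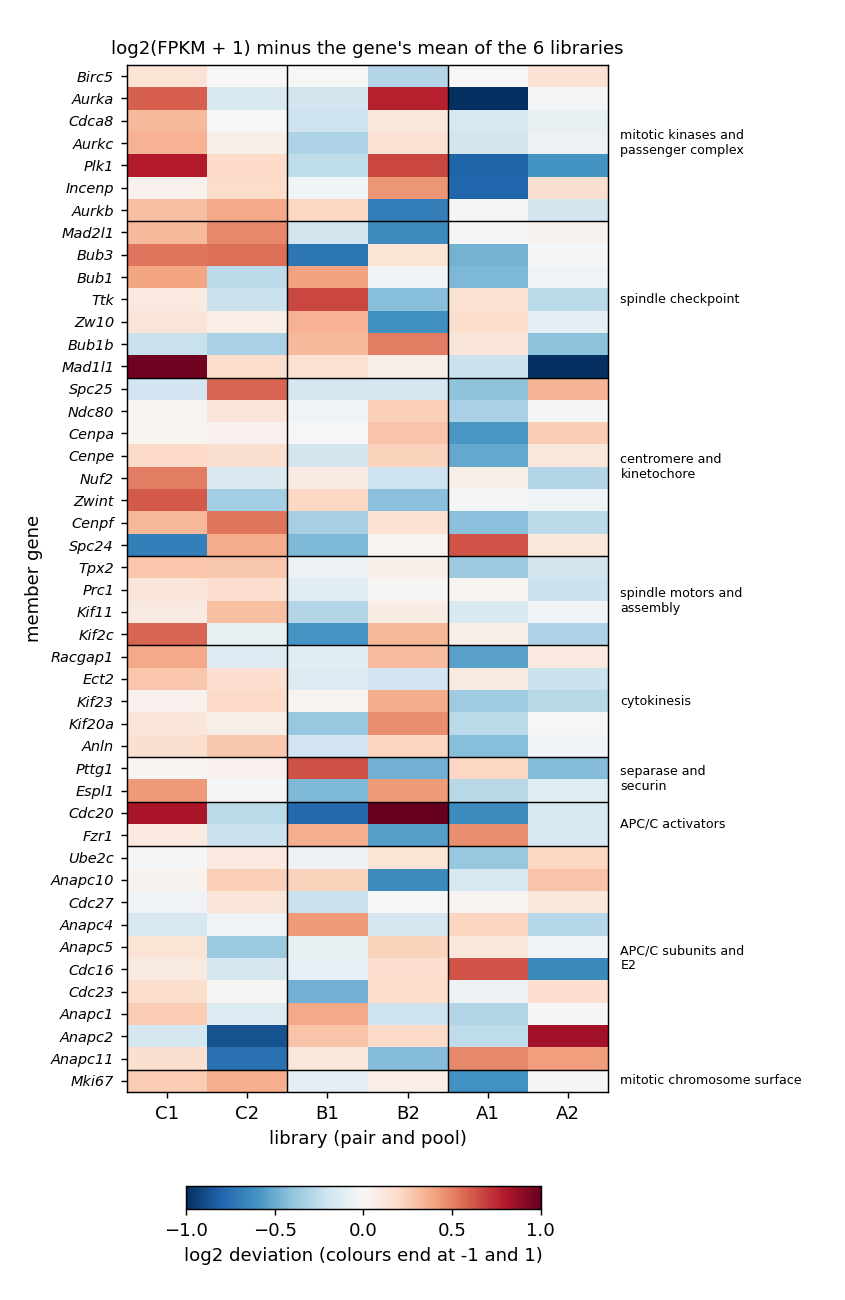
Deviation of log2(FPKM + 1) of each member from its mean over the 6 libraries, red above and blue below the mean, with members ordered by role and libraries in columns C1, C2, B1, B2, A1 and A2. Column A1 is mostly blue, with 16 of 46 members at their lowest there (34.8%, against 15.8% of all tested genes). Columns C1 and C2 are mostly red outside the APC/C subunits.

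The members did not vary in 1 common way, and 2 patterns, picked after the values were seen, covered 22 of them. In the first, both C libraries lay above the other 4, as for 10 members: Mad2l1, Bub3, Tpx2, Prc1, Kif11, Ect2, Mki67, Cenpf, Aurkb and Mad1l1 (21.7%, against 5.84% of all tested genes). In the second, C1 and B2 lay above the other 4, as for 12 members: Aurka, Cdc20, Plk1, Cdca8, Aurkc, Cenpe, Kif2c, Racgap1, Kif20a, Espl1, Anapc5 and Cdc23 (26.1%, against 12.5%). The second pattern cuts across the pairs, but 6 of its 12 members (Plk1, Cdca8, Aurkc, Cenpe, Kif20a and Espl1) were also apart with C higher than A and so are among the 19 of that comparison. Cdc23 entered it by a margin of 7.75 FPKM in C1 and B2 over 7.72 FPKM in A2. In the same libraries, the summed level of 21 markers of the 2-cell stage was highest in B2. It was 2337 FPKM in C1, 1704 in C2, 2850 in B1, 3746 in B2, 2044 in A1 and 1399 in A2. The median deviation over the 20 tested markers was 0.93 in B2, 0.16 in C1 and 0.01 in B1. It was -0.10 in A1, -0.36 in C2 and -0.71 in A2. The sum thus placed C1 below B1, and the median deviation placed it above. The part of the embryos' stage in the second pattern was not tested. Further patterns were also picked after the values were seen. Pttg1, Bub1, Ttk, Zw10, Anapc1 and Anapc4 were highest in B1 (13.0%, against 16.5%). Bub1b was the only member with both B libraries on top (2.17%, against 7.41%). Anapc11 was the only one with both A libraries on top (2.17%, against 4.14%), at 3.75 and 1.53 FPKM in pair C, 3.60 and 2.15 FPKM in pair B, and 4.94 and 4.69 FPKM in pair A.

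**Figure D4:**
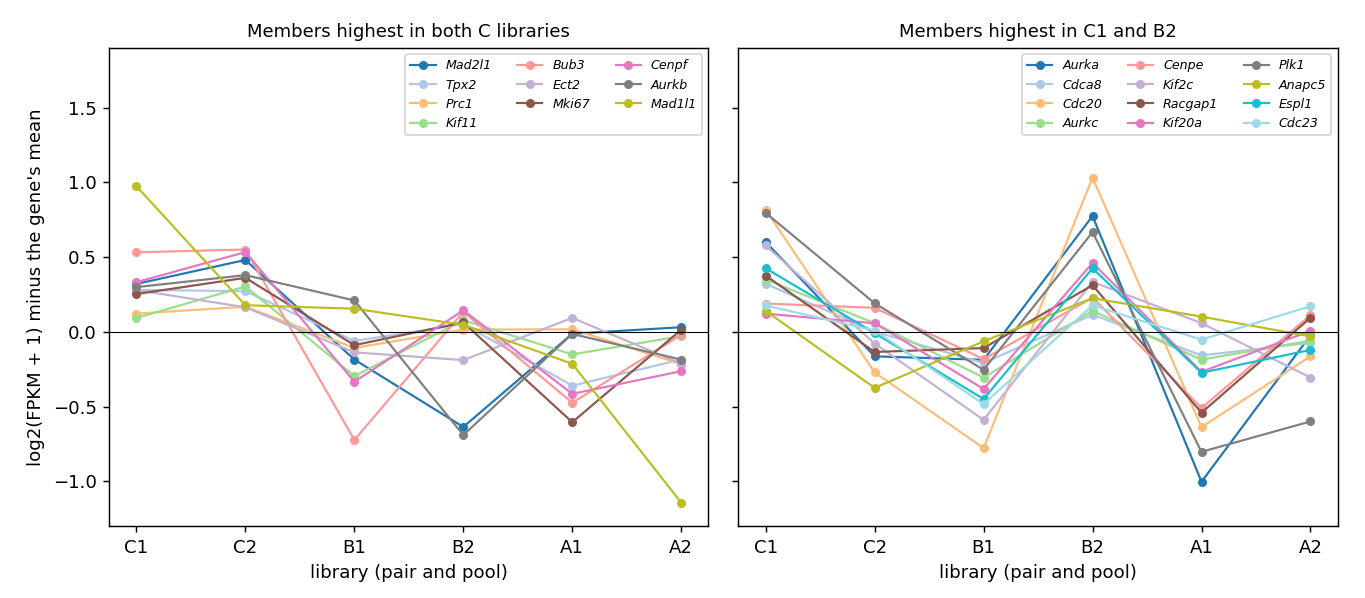
Deviation of log2(FPKM + 1) from the gene's mean in each library, for the 10 members highest in both C libraries (left) and the 12 highest in C1 and B2 (right); each line is 1 gene. Lines on the left step down between C2 and B1, while those on the right peak at C1 and at B2.

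Outside the module, and chosen like the members with earlier results known, 82 further genes of the same machinery in 7 lists were looked up, of which 78 were tested and 0 reached an adjusted p under 0.05 in any comparison. With an unadjusted limma p under 0.05, 0 of the 78 were higher in C against B, 1 in C against A and 2 in B against A, and 0 were lower in any. Of all tested genes, 1.64%, 1.67% and 2.77% were higher at that threshold, and 2.22%, 1.34% and 1.79% were lower. Cep55, Fbxo5 and Smc4 had such a p and are given below for that reason. The difference was above 0 for 48 of the 78 in C against B (61.5%, against 49.9% of all tested genes), 57 in C against A (73.1%, against 56.5%) and 49 in B against A (62.8%, against 55.1%). The 7 tested substrates of APC/C were all above 0 in C against A, with a median of 0.09 (0.06 over all tested genes), and reached a mean of 992 FPKM. The 8 tested other APC/C subunits, E2 enzymes and inhibitors had 6 above 0 in C against A, with a median of 0.30. The 11 tested cohesin and shugoshin genes had 5 above 0 there, with a median of -0.02. Of the 6 tested other checkpoint genes, 2 were above 0 in C against B, with a median of -0.08. In C against A, 5 of these checkpoint genes were above 0, with a median of 0.25.

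Fbxo5, the gene of the APC/C inhibitor Emi1, had 139 and 60.8 FPKM in pair C, 85.3 and 149 FPKM in pair B, and 42.4 and 51.6 FPKM in pair A. Like Cdc20 and Aurka it was highest in C1 and B2, and its difference was 1.25 ± 0.46 in B against A (SE; limma unadjusted p = 0.0294, adjusted p = 0.991). Smc4, a core subunit of condensin, had 32.7 and 31.9 FPKM in pair C, 42.2 and 52.7 FPKM in pair B, and 30 and 18.5 FPKM in pair A, with both B libraries on top and a difference of 0.97 ± 0.34 in B against A (limma unadjusted p = 0.0242). Cep55, a midbody protein of abscission, had 28.2 and 19.0 FPKM in pair C, 18.2 and 8.74 FPKM in pair B, and 10.4 and 8.69 FPKM in pair A. Both C libraries were above the other 4, and the difference in C against A was 1.2 ± 0.43 (limma unadjusted p = 0.0255, adjusted p = 1).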

How the data were processed

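Per the submitters' processing notes, reads were handled with Trimmomatic, Trim Galore, cutadapt, STAR and featureCounts on mm10; the sources used here give no versions, annotation or strand handling. cDNA was amplified with 13 PCR cycles and read as 50 and 25 bases. The authors deposited FPKM per gene without spike-in rows, 1 column per library. Per gene the FPKM steps gave multiples of 0.01 read; 55.58% to 57.88% of values above 0 were whole reads (tolerance 0.001 read). PCR copies cannot be told from separate molecules. Genes averaging 1 FPKM or more were tested with limma 3.58.1 in R 4.3.3 on log2(FPKM + 1) with a variance trend, 1 mean per pair and no block; the scripts were tested on simulated data. Alternatives were the pseudocount, the filter, scaling, limma-voom on recovered reads, a replicate block and leaving libraries out. Every library is given for the 15 highest members, those with an unadjusted p under 0.05, and those with a mean of at least 5 FPKM whose pairs were apart in 2 of 3 comparisons. The members and lists were chosen with earlier results of these data known. Coordinates of genes are those deposited with the FPKM values, on mm10. Of the gene IDs, 99.8% were found in GENCODE M21 with the version suffix ignored.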

Additional observations from a re-analysis of the deposited data

How the results depend on the processing

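In each comparison, 17 alternatives were run. Under a pseudocount of 0.1, 1 gene was called in C against B (adjusted p = 0.0342), which is no member. The member median in C against B was 0.17, and between 0.04 and 0.24 when 1 library was left out: 0.04 without C1 and 0.06 without B1. In C against A it was 0.26, between 0.18 and 0.35 when 1 library was left out, and 0.38 without A2 and C2. In B against A it was 0.10 and between 0.01 and 0.20. No member was called. Signs were followed for the members given in full whose pairs were apart in the comparison, and none changed. For pairs that are apart, leaving a library out cannot change the sign, so those settings could not show a reversal. The signs of members with overlapping pairs were not followed across settings. By limma-voom on recovered reads, 2 members had an unadjusted p under 0.05 with C higher than B (4.35%, against 1.73% of all tested genes). There were 4 with C higher than A (8.70%, against 1.66%) and 0 with B higher than A (against 2.89%). Without the variance trend, 0 members had an unadjusted p under 0.05 with C higher than B (against 1.61% of all tested genes), so Mad2l1 no longer did. With C higher than A there were 2 (4.35%, against 1.82%). The count with C higher than A stayed at 1 with a pseudocount of 0.1 (2.17%, against 1.62%). It was also 1 with the filter at a mean of 5 FPKM (2.38%, against 1.35%). With 1 library left out, the Plk1 difference in C against A lay between 0.89 and 1.5, and a pair of 1 library has no spread of its own. Same-numbered pools of different pairs deviated together with correlations of 0.005, 0.203 and 0.098, so the numbers were not taken to pair the samples; with a replicate block 0 genes were called in each comparison, and members with an unadjusted p under 0.05 were 2 with C higher than B (4.35%, against 2.13% of all tested genes), 2 with C higher than A (4.35%, against 2.03%) and 0 with B higher than A (against 3.24%). Depth limits Fzr1 and Mad1l1 most.

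The counts of members apart were computed in other settings after seeing the data. Leaving out 1 library of the 2 pairs compared raises them for all genes. With C higher than B they lay between 15 without C1 (32.6%, against 28.7% of all tested genes) and 27 without B2 (58.7%, against 31.9%). With B higher than A they lay on both sides of the share of all tested genes, between 11 without A1 (23.9%, against 38.9%) and 25 without B1 (54.3%, against 36.9%). With C2 and A2 left out, members were apart with C higher than B for 20 (43.5%, against 37.2% of all tested genes), and with B higher than A for 19 (41.3%, against 34.2%).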
